A study of Rattus norvegicus with 6 samples.

Results

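The genes described here encode the machinery that moves membrane vesicles between compartments of the cell. They were taken as every gene on the array whose annotated symbol began with the letters of 1 of these families: syntaxins, SNAP and VAMP proteins, Nsf and its attachment proteins, synaptotagmins, sorting nexins, Vps, Sec, COPI coat, adaptor, Tmed, Trapp, exocyst, clathrin and Lamp proteins and the subunits of the vacuolar proton pump. The pattern found 61 genes among the 3158 named genes and 7180 features of the array, a feature being a named gene or a cDNA clone without a single gene name. Spots that carried several gene names, among them those of Sec61g, were not used, and no synaptotagmin was among the genes found. The tumor RNA came from 3 rat cell lines, JA, JB and Amy, which the labels describe as lines of esophageal tumors induced by reflux. As the control, RNA of a pool was used, in which 2 normal esophageal cell lines of the rat were mixed in equal parts. Each tumor line was hybridized together with this pool on 2 two-colour cDNA arrays, with the line in Cy3 on the first and in Cy5 on the second.

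Newly made secretory and membrane proteins enter the endoplasmic reticulum (ER) and leave it in vesicles formed by the COPII coat, while COPI vesicles return material from the Golgi. Clathrin and its adaptor complexes form vesicles at the trans-Golgi network, at endosomes and at the plasma membrane. Tethers and SNARE proteins bring vesicles to their target and fuse them, and sorting complexes on endosomes decide whether cargo is recycled or sent to the lysosome, whose lumen is acidified by the vacuolar proton pump. In stratified epithelium such as that of the esophagus these routes also carry adhesion proteins and lipids to the cell surface.

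All values are log2 ratios, given for the tumor line over the pool. The sample titles name the line before the pool, and no label states the direction outright, so it is likely but not settled; with the opposite direction, every higher would become lower. Base 2 of the logarithm is likewise an assumption. The arrays held 16128 spots with no missing value, and array medians over features lay between -0.05 and -0.17. Between dye-swapped arrays, Pearson's r over the 61 genes was 0.782 for JA, 0.652 for JB and 0.878 for Amy, and over all features 0.844, 0.815 and 0.888 in the same order of lines. The 2 arrays of a line hold the same RNA extracts, so a line is 1 replicate, and precision is limited by having 3 of them. The labels do not say how many tumors or animals the lines came from. The p-values measure only the spread between these 3 lines. The pool stood far above the tumor lines in fibroblast markers: all 6 measured genes of that list were lower in the lines, with means from -9.0 to -2.81, as were 6 of 7 leukocyte, 4 of 4 muscle and 3 of 3 endothelial markers, with the other leukocyte gene higher at 0.67. The sign of 1 lower leukocyte gene, Cd53, followed the dye. It stood at 0.81, 1.12 and 0.25 with JA, JB and Amy in Cy3, but at -1.42, -2.52 and -1.10 with them in Cy5. Of 13 markers listed for neurons and neuroendocrine cells, 8 were measured; the 2 higher ones, Slc1a3 at 2.44 and Mog at 0.62, are known from glia, and Syp and Thy1 were lower at -0.87 and -1.73. Of 10 epithelial markers listed, 4 were measured; 1 was higher (Cdh3 at 1.98), 2 were lower (Lgals7 at -5.82 and Cstb at -0.68) and Krt8, a keratin of simple epithelia, did not pass at 0.41. The part of these cell type differences in the results below was not tested. In RNA of whole cultures, fewer cells of a type and less RNA per cell cannot be told apart.

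Of the 61 trafficking genes, 14 were higher and 16 lower in the tumor lines at an adjusted p under 0.05 (limma, mean of 3 lines against 0, Benjamini-Hochberg over 7180 features), and 31 did not pass. Among all features 20.7% were called higher and 32.8% lower, so the share of trafficking genes called, 49.2%, was close to the 53.5% of the whole array. Differences of 2-fold or more were few. A mean of at least 1 in size was reached by 5 of the 61 genes, or 8.2%, against 22.3% of all features, although the median size was 0.53 for the trafficking genes and 0.50 for all features. At least 1 with a single sign on all 6 arrays was reached by 0 of the 61 genes, against 2.83% of features above and 8.12% below; the closest, the pump subunit Atp6v1c2, missed it by an Amy value of -0.999. The median of the set was -0.08, that of all features -0.12. The upward shift that centring gives each array, by its own median of 0.05 to 0.17, changed the split to 16 higher and 13 lower, and scaling to a common spread to 16 higher and 12 lower. Without JA, 6 genes were higher and 6 lower, and without Amy 8 and 13. The share of all features called under these other settings was not counted, so a fall particular to this set is not shown.

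The calls of 11 genes held when each line in turn was left out, and also with centred or scaled arrays, with each array left out and in each dye orientation alone. In the tumor lines 5 of them were higher: the adaptor subunits Ap1s1 and Ap3s2, the COPII coat protein Sec13, the cargo receptor Tmed4 and the retromer subunit Vps29. The other 6 were lower: the sorting proteins Vps36, Vps28 and Snx5, the lipid transfer protein Vps13d, the pump subunit Atp6v1c2, and Sec14l1, which belongs to another protein family. With variances not moderated, only Ap3s2, Sec13 and Sec14l1 of these 11 kept their calls. The others then had adjusted p from 0.0536 to 0.0858. How many of all features kept their calls under the same settings was not counted.

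**Figure D1:**
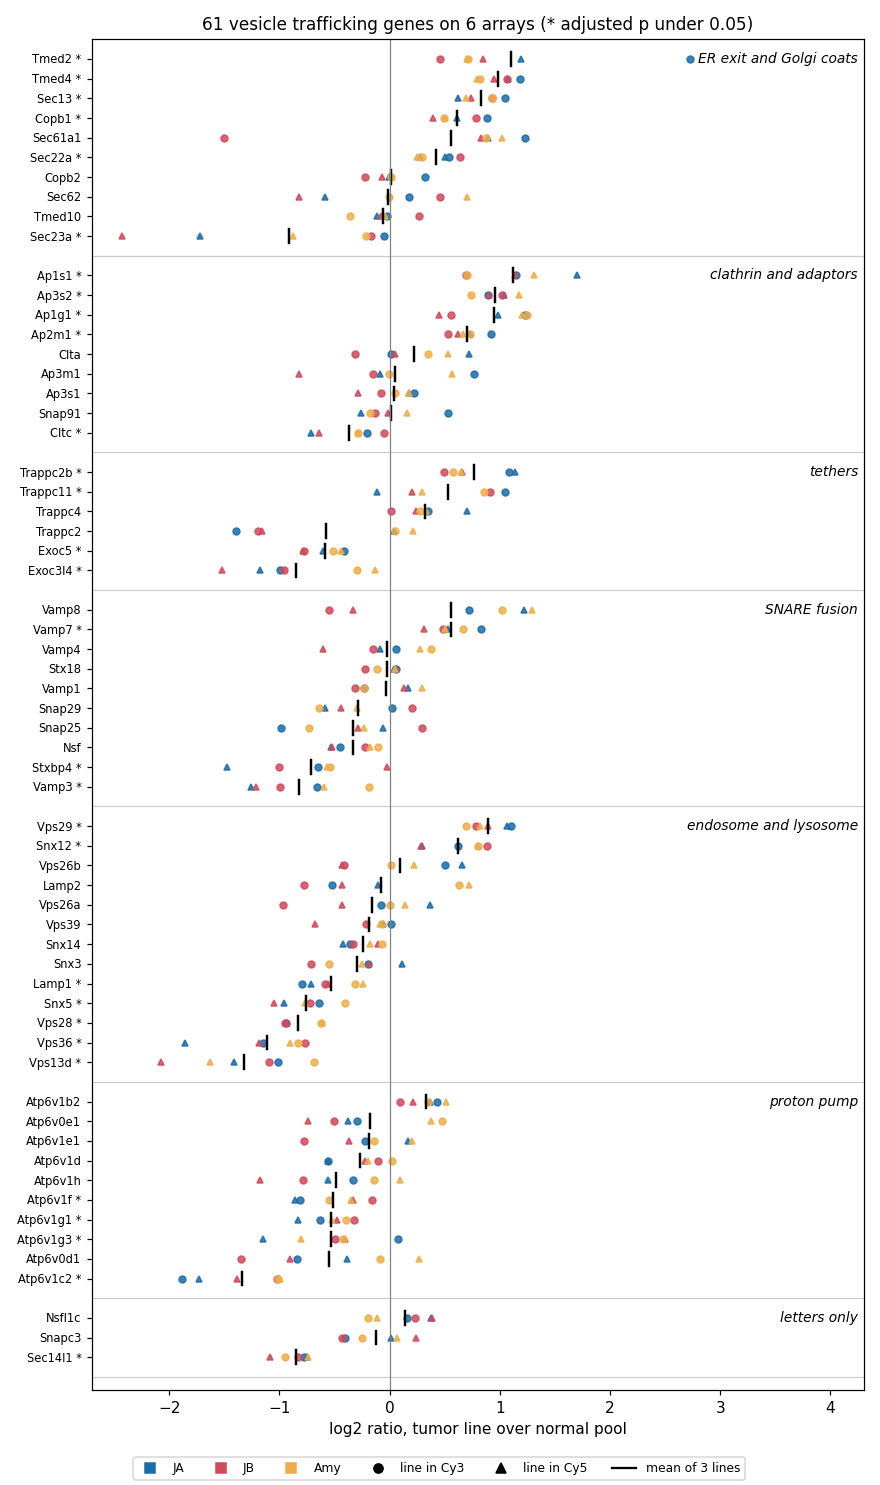
Log2 ratio of tumor line over normal pool (horizontal axis) for each of the 61 genes (rows, grouped by transport step and sorted by mean), with the line as colour, the dye of the line as symbol and the mean of 3 lines as a black bar; a star marks an adjusted p under 0.05. Most points lie between -1 and 1, and the widest disagreements between the dyes are those of Sec23a, Sec61a1 and Tmed2.

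The plot of means by step shows higher and lower calls in every transport step except the proton pump, and the counts per step stand beside 20.7% higher and 32.8% lower over all features. ER exit and Golgi coats had 5 genes higher and 1 lower of 10, with a median of 0.49, and clathrin and adaptors 4 higher and 1 lower of 9, with a median of 0.22. Endosome and lysosome genes had 2 higher and 5 lower of 13, with a median of -0.25, and the proton pump 0 higher and 4 lower of 10, with a median of -0.50. Tethers had 2 higher and 2 lower of 6 and SNARE genes 1 higher and 2 lower of 10. These are counts over few genes, and the steps were tested neither against each other nor against all features.

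**Figure D2:**
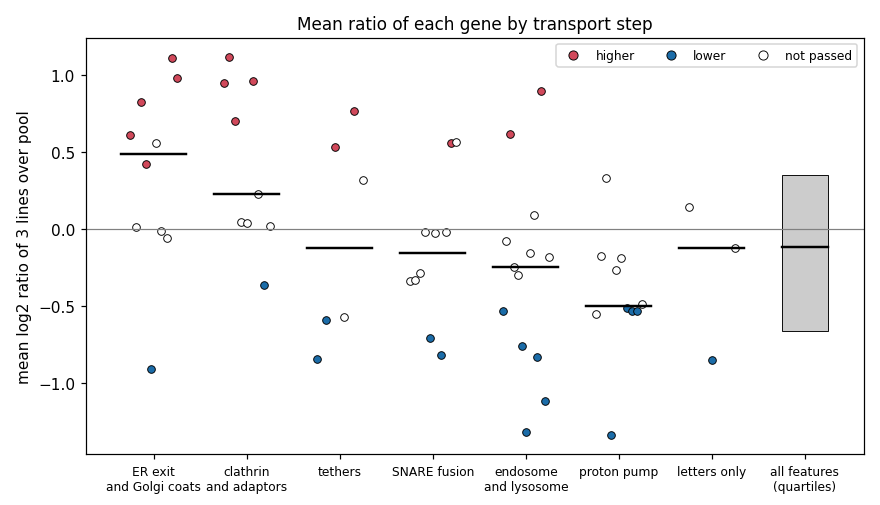
Mean log2 ratio of the 3 tumor lines over the pool (vertical axis) for each gene, grouped by transport step; red points were higher, blue points lower and open points did not pass, black bars are medians, and the grey box spans the quartiles of all 7180 features, from -0.66 to 0.35. The medians run from 0.49 for the ER and Golgi coats to -0.50 for the proton pump.

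Of the 10 genes of ER exit and Golgi coats, 5 were higher in the tumor lines, with means between 0.42 and 1.11, 1 was lower and 4 did not pass. Tmed2 and Tmed4 belong to the p24 family of cargo receptors that cycle between ER and Golgi. Tmed4 stood at 1.19 and 1.08 on the JA arrays, 1.06 and 0.94 on the JB arrays and 0.82 and 0.79 on the Amy arrays (line in Cy3 first, line in Cy5 second, as in all pairs of array values below). These values lay above 0 on every array and close together, and their mean was 0.98 ± 0.16 (SD, n = 3 lines, as for every ± below), 1.97-fold, with an adjusted p of 0.00298. Tmed2, the highest gene of the step at 1.11 ± 0.74 (adjusted p = 0.0254), was less even: it had 2.73 and 1.19 in JA, 0.46 and 0.85 in JB, and 0.71 and 0.71 in Amy. A single JA array thus stood well above the other 5. Another family member, Tmed10, had a mean of -0.06 with a 95% interval from -0.37 to 0.25.

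The coat proteins themselves differed. Sec13, an outer-layer protein of the COPII coat that also serves in the nuclear pore, was higher at 0.82 ± 0.012 (adjusted p = 0.00343), with 1.05 and 0.62 in JA, 0.93 and 0.73 in JB, and 0.93 and 0.69 in Amy. The 3 line means were nearly equal, but its 2 clones, at 0.96 and 0.69, ordered the lines oppositely. They stood at 1.10 and 0.57 in JA, 1.03 and 0.63 in JB, and 0.76 and 0.86 in Amy. The small SD of the averaged clones leaves this disagreement out. Sec23a, an inner-layer protein of the same coat, was lower at -0.91 ± 0.38 (adjusted p = 0.01). Its values were -0.05 and -1.72 in JA, -0.17 and -2.43 in JB, and -0.22 and -0.87 in Amy. The low ratio was thus seen mainly with the line in Cy5, where the 3 arrays averaged -1.67, against -0.15 with the line in Cy3, and on the Cy3 arrays alone the call was lost (adjusted p = 0.403).

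In the COPI coat, Copb1 (beta subunit) was higher at 0.61 ± 0.13 (adjusted p = 0.0104), while Copb2 (beta-prime subunit) had a mean of 0.01 with a 95% interval from -0.30 to 0.32. Sec22a, of a family of ER and Golgi SNARE-like proteins, was higher at 0.42 ± 0.13 (adjusted p = 0.0348). Sec61a1, the channel of the ER translocon, had values of 1.23 and 0.89 in JA, -1.50 and 0.83 in JB, and 0.87 and 1.02 in Amy and did not pass at a mean of 0.56 (adjusted p = 0.172). A single JB array opposed the other 5, and without that array Sec61a1 passed at 0.95 (adjusted p = 0.00413). Sec62, which works beside the translocon, had a mean of -0.01. Without JA the calls of Copb1, Sec22a and Sec23a were lost (adjusted p = 0.0696, 0.156 and 0.0681), without Amy those of Tmed2 and Sec22a (0.0599 and 0.0732), and without JB that of Sec22a (0.0868). The call of Tmed2 was also lost on the Cy3 arrays alone (0.0562) and with the dye orientation as a replicate block (0.0537), that of Sec22a on the Cy5 arrays alone (0.0902) and when the Cy3 array of JA or of JB was left out (0.064 and 0.0858), and that of Sec23a when the Cy5 array of JA or of JB was left out (0.0901 and 0.0612).

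Of 6 measured subunits of the adaptor complexes, which select cargo for coated vesicles, 4 were higher in the tumor lines, between 1.62-fold and 2.17-fold. With the clathrin genes the step had 4 of 9 higher, where 20.7% of all features were. Ap1s1, the small subunit of the AP-1 complex of the trans-Golgi network and endosomes, was the highest gene of the whole set at 1.12 ± 0.27, 2.17-fold (adjusted p = 0.00328). It stood at 1.15 and 1.70 in JA, 0.70 and 1.14 in JB, and 0.70 and 1.31 in Amy, above 0 on every array and higher in each line with the line in Cy5. Ap1g1, the large gamma subunit of the same complex, was higher at 0.95 ± 0.39 (adjusted p = 0.00925), with line means of 1.11 in JA, 0.50 in JB and 1.22 in Amy. Ap3s2, a small subunit of the AP-3 complex that serves lysosome-related organelles, was higher at 0.96 ± 0.0049 (adjusted p = 0.00224). Its array values ran from 0.74 to 1.17, a spread that the near-equal line means leave out. Ap2m1, the cargo-binding medium subunit of the plasma membrane complex AP-2, was higher at 0.70 ± 0.13 (adjusted p = 0.00686).

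The remaining adaptor genes did not pass, and the clathrin heavy chain was lower. Ap3m1 and Ap3s1, other subunits of AP-3, had means of 0.05 and 0.04, with 95% intervals from -0.46 to 0.55 and from -0.30 to 0.38. The clathrin heavy chain Cltc was slightly lower at -0.37 ± 0.09 (adjusted p = 0.0451), with -0.21 and -0.72 in JA, -0.05 and -0.64 in JB, and -0.29 and -0.29 in Amy. All 6 arrays lay below 0, but the call sits at the edge of the threshold and was lost without any one line (adjusted p = 0.181, 0.0944 and 0.111 without JA, JB and Amy), with centred or scaled arrays (0.127 and 0.123), on the Cy3 arrays alone (0.311), with the replicate block (0.0642), and when any single array other than that of JB in Cy3 was left out (0.0544 to 0.198). The light chain Clta had a mean of 0.22 and Snap91, a clathrin assembly protein of synapses, of 0.02, and neither passed (adjusted p = 0.275 and 0.912). Without JA the calls of Ap1g1 and Ap2m1 were lost (0.0722 and 0.0539), and without Amy that of Ap1g1 (0.0546).

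Tethering factors moved in both directions. The exocyst, which holds secretory vesicles at the plasma membrane, was measured through Exoc5 alone, lower at -0.59 ± 0.17 (adjusted p = 0.0137). The related gene Exoc3l4 was lower at -0.85 ± 0.55 (adjusted p = 0.0284). Exoc3l4 stood at -0.99 and -1.18 in JA, -0.96 and -1.52 in JB, and -0.29 and -0.13 in Amy. The ratio was thus near -1 in JA and JB and much closer to 0 in Amy. Of the TRAPP complex, a tether of the ER and Golgi, Trappc2b was higher at 0.77 ± 0.30 (adjusted p = 0.0117) and Trappc11 at 0.53 ± 0.06 (adjusted p = 0.0134).

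The TRAPP values depend on the clone. Trappc2b had 1.09 and 1.14 in JA, 0.49 and 0.65 in JB, and 0.57 and 0.65 in Amy, but its 2 clones stood at 1.38 and 0.15. Trappc2, a near copy of Trappc2b whose RNA a cDNA spot may not tell apart from it, had a mean of -0.57 and did not pass (adjusted p = 0.121); its clones stood at -0.37 and -0.77. Trappc4 had a mean of 0.32 (adjusted p = 0.0953), from clones at 0.81 and -0.17, and passed with centred arrays (0.0435), with scaled arrays (0.0399) and with its first clone alone (0.00927). Trappc11 averaged 0.94 on the Cy3 arrays and 0.13 on the Cy5 arrays, where it did not pass (adjusted p = 0.507). Without JA the calls of all 4 tethers were lost (adjusted p from 0.0591 to 0.157), that of Exoc3l4 also without JB (0.0583) or with scaled arrays (0.0524), and that of Trappc11 when Amy (0.0683) or the Cy3 array of JA or of JB was left out (0.204 and 0.0642).

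SNARE genes, whose products fuse vesicles with their target, had a median of -0.16. Of these genes 7 of 10 did not pass, beside 3337 of all 7180 features. Vamp3 (cellubrevin), a SNARE of recycling endosomes, was lower at -0.82 ± 0.38 (adjusted p = 0.0139). Its values were -0.66 and -1.26 in JA, -0.9985 and -1.21 in JB, and -0.18 and -0.59 in Amy, all below 0 and nearest to it in Amy. Stxbp4, a binding partner of syntaxin 4, was lower at -0.71 ± 0.31 (adjusted p = 0.0151). Vamp7, a SNARE of late endosomes and lysosomes, was higher at 0.55 ± 0.14 (adjusted p = 0.0152), and its 2 clones stood at 0.45 and 0.65.

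The highest mean of the SNARE genes, 0.56, belonged to Vamp8 (endobrevin), a SNARE of granule secretion and of the fusion of autophagosomes with lysosomes, which did not pass (adjusted p = 0.207). It stood at 0.72 and 1.22 in JA and at 1.02 and 1.29 in Amy, but at -0.55 and -0.33 in JB. Both JB arrays thus lay below 0 and the other 4 above it. Nsf, the ATPase that takes used SNARE complexes apart, had a mean of -0.34 (adjusted p = 0.0766). It passed with the dye orientation as a replicate block (0.0464), a fit that counts dye-swapped arrays of the same extracts in part as replicates. The neuronal SNAREs Snap25 and Vamp1 had means of -0.33 and -0.03, the ER SNARE Stx18 of -0.02, the trans-Golgi SNARE Vamp4 of -0.02 and the broadly expressed Snap29 of -0.29, with adjusted p from 0.112 to 0.925. Without JA the calls of Vamp3, Stxbp4 and Vamp7 were lost (adjusted p = 0.0948, 0.0706 and 0.0911), and without Amy those of Stxbp4 and Vamp7 (0.0518 and 0.0735); that of Stxbp4 was also lost on the Cy5 arrays (0.104), without the JB array in Cy3 (0.0925) and with the replicate block (0.0974). Without JB, Vamp8 passed at 1.06 (0.00278) and Snap25 at -0.50 (0.0368), and without the JB array in Cy3 Snap25 passed at -0.43 (0.0493). Snap29 passed on the Cy5 arrays alone at -0.44 (0.0477).

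Of the 13 endosome and lysosome genes, 5 were lower in the tumor lines, 2 were higher and 6 did not pass, where 32.8% of all features were lower and 20.7% higher. The ESCRT complexes carry ubiquitin-tagged membrane proteins into the lysosomal pathway, and both measured subunits among the 61 genes were lower: Vps36 of ESCRT-II at -1.12 ± 0.34 (adjusted p = 0.00441) and Vps28 of ESCRT-I at -0.83 ± 0.19 (adjusted p = 0.00518). Vps36 stood at -1.14 and -1.86 in JA, -0.77 and -1.19 in JB, and -0.84 and -0.91 in Amy, below 0 throughout and lowest in JA. Vps13d, a lipid transfer protein of membrane contact sites, was the lowest of this step at -1.32 ± 0.23, 2.49-fold lower (adjusted p = 0.00173). It had -1.01 and -1.41 in JA, -1.09 and -2.07 in JB, and -0.69 and -1.63 in Amy, so that in every line the array with the line in Cy5 was lower. Snx5, a sorting nexin of endosome tubules, was lower at -0.76 ± 0.15 (adjusted p = 0.00585).

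Retromer retrieves cargo from endosomes to the trans-Golgi network, and 1 of its 3 measured subunit genes passed. Vps29 was higher at 0.89 ± 0.17 (adjusted p = 0.00397), with 1.10 and 1.06 in JA, 0.78 and 0.90 in JB, and 0.69 and 0.82 in Amy. It was read by 4 clones, whose means of 0.78 to 0.96 were close to each other. Its partner subunits Vps26a and Vps26b had means of -0.16 and 0.09 (adjusted p = 0.536 and 0.738), with 95% intervals from -0.67 to 0.35 and from -0.45 to 0.63. Snx12 was higher at 0.62 ± 0.18 (adjusted p = 0.0124), while its close relative Snx3, a retromer partner, had a mean of -0.30 (adjusted p = 0.122). Snx14 had a mean of -0.25 and Vps39, of the HOPS tether of late endosomes, of -0.18, and neither passed (0.143 and 0.307). The call of Snx12 was lost without JA (0.0501), without Amy (0.0664) and on the Cy5 arrays alone (0.0693), and Snx3 passed on the Cy3 arrays alone at -0.49 (0.0496).

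The lysosomal membrane and its pump were lower or did not pass. Lamp1, an abundant glycoprotein of the lysosomal membrane, was lower at -0.53 ± 0.24 (adjusted p = 0.0260). It had -0.79 and -0.71 in JA, -0.59 and -0.56 in JB, and -0.32 and -0.24 in Amy, and its 3 clones stood at -0.51, -0.33 and -0.77. The call was lost without JA (0.134) or JB (0.0554) and with centred or scaled arrays (0.0566 and 0.0529). Lamp2, its relative, had a mean of -0.08 and did not pass (0.815); it stood at -0.52 and -0.11 in JA and -0.78 and -0.43 in JB, but at 0.63 and 0.72 in Amy.

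Of the 10 subunits of the vacuolar proton pump, 4 were lower and 0 higher in the tumor lines (limma; 32.8% and 20.7% of all features were called in these directions). At an unadjusted p under 0.05, 5 passed, these 4 and Atp6v1b2 with a mean of 0.33, beside 4306 of the 7180 features. Atp6v1c2, a C subunit isoform of restricted tissue distribution, was the lowest of all 61 genes at -1.34 ± 0.42, 2.53-fold lower (adjusted p = 0.00381). Its values were -1.89 and -1.73 in JA, -1.02 and -1.38 in JB, and -1.01 and -0.999 in Amy. The other 3 lower subunits, Atp6v1g3 (a G isoform known mainly from kidney), the common G isoform Atp6v1g1 and Atp6v1f, had means of -0.53, -0.53 and -0.51 (adjusted p = 0.0141, 0.0202 and 0.0403). The G3 isoform was uneven between arrays, with 0.08 and -1.15 in JA, and was called neither on the Cy3 arrays (0.218) nor with the replicate block (0.0918) nor without the JA array in Cy5 (0.177).

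Among the other pump subunits, Atp6v1b2, the B subunit isoform found in most cells, part of the ATP-splitting head, was the only one with a mean above 0. It stood at 0.43 and 0.37 in JA, 0.10 and 0.21 in JB, and 0.35 and 0.51 in Amy. Its mean of 0.33 did not pass (adjusted p = 0.0744), but passed with centred arrays at 0.45 (0.0332) and with scaled arrays (0.0339). It also passed with the replicate block (0.0439), where dye-swapped arrays of the same extracts count in part as replicates. The stalk subunits Atp6v1d and Atp6v1e1, the regulatory subunit Atp6v1h and the membrane-sector subunits Atp6v0d1 and Atp6v0e1 had means of -0.27, -0.19, -0.48, -0.55 and -0.18 (adjusted p from 0.100 to 0.532). The 3 clones of Atp6v1d stood at -0.48, 0.14 and -0.47, and with its first clone alone it passed (0.0382). Without JA or without Amy the calls of Atp6v1g3, Atp6v1g1 and Atp6v1f were lost (adjusted p from 0.0721 to 0.172), and without Amy Atp6v0d1 passed at -0.87 (0.0390). That of Atp6v1f was further lost with centred or scaled arrays (0.0784 and 0.0709), on the Cy3 or Cy5 arrays alone (0.0549 and 0.0523), and without the Amy or JA array in Cy3 or the JB array in Cy5 (0.0565, 0.0588 and 0.0747).

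**Figure D3:**
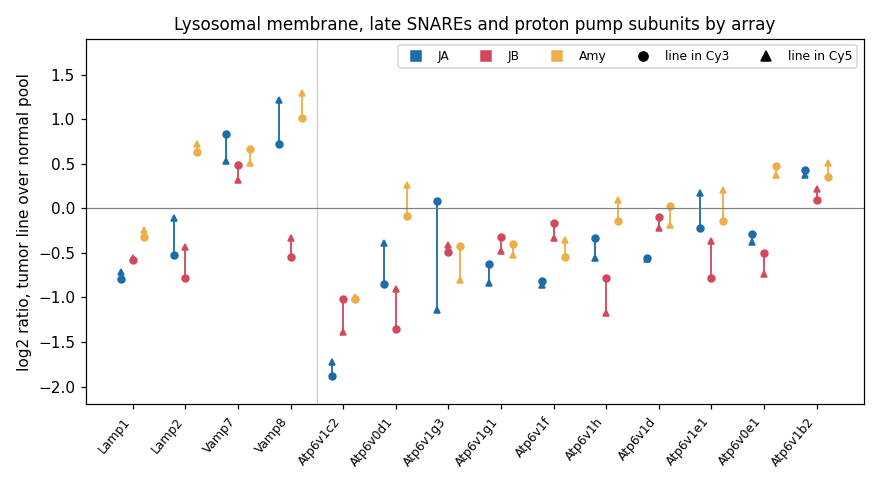
Log2 ratio of tumor line over normal pool (vertical axis) on each array for the Lamp genes, the late endosomal SNAREs Vamp7 and Vamp8 and the 10 pump subunits (horizontal axis); colours are lines, circles and triangles the dye of the line, and a vertical stroke joins the dye-swapped arrays. Vamp8 lies below 0 in JB alone, and Lamp2 and Atp6v0e1 lie above 0 in Amy alone.

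Promoters are shown for Lamp1 and for the pump subunits Atp6v0d1 and Atp6v1c2 because lysosomal genes are known to share an element bound by the regulator TFEB, with the palindrome TCACGTGA at its core. The sequences are the 250 bases before the annotated start, 5′ to 3′ along the gene, from RefSeq on GRCr8, and capitals mark the palindrome. The window of Lamp1 lies at chr16:83075064-83075313, that of Atp6v0d1 at chr19:50357249-50357498 and that of Atp6v1c2 at chr6:45848748-45848997, all on the minus strand.
Lamp1: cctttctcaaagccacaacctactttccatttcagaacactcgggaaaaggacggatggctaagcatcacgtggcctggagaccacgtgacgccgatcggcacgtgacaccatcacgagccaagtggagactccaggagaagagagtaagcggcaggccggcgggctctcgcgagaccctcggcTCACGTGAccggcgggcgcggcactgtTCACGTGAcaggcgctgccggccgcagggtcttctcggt
Atp6v0d1: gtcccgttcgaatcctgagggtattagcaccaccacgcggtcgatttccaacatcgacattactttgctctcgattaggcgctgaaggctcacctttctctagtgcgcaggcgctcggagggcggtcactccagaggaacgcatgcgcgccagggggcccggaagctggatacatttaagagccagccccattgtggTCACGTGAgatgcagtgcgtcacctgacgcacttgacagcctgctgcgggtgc
Atp6v1c2: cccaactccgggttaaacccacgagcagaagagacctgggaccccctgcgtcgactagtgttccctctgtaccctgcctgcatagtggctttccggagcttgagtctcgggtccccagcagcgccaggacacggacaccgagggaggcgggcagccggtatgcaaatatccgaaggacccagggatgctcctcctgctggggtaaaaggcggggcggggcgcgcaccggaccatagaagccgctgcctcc
Lamp1 held 2 copies, beginning 66 and 39 bases before the start, Atp6v0d1 held 1 copy, beginning 53 bases before it, and Atp6v1c2, the pump gene with the lowest ratio, held none in this window. Of the 51 trafficking genes with a promoter entry, 4 held the palindrome (Lamp1, Atp6v0d1, Snap29 and Vps26a), or 7.84%, against 0.657% of 33469 rat promoters of the same length, both strands being covered since the letters read the same on each. Of these 4 genes Lamp1 passed the test and the other 3 did not, with means of -0.55, -0.29 and -0.16. The match is a description of letters, not of binding.

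Of the 61 genes, 3 matched the pattern by their letters but encode proteins of other families. Sec14l1, a lipid-binding protein, was lower at -0.85 ± 0.10 (adjusted p = 0.00357), with -0.77 and -0.75 in JA, -0.83 and -1.08 in JB, and -0.95 and -0.74 in Amy. Its 6 arrays lay within a narrow range and on 1 side of 0. Nsfl1c, a cofactor of the ATPase p97 in membrane fusion, stood at 0.16 and 0.38 in JA, 0.23 and 0.38 in JB, and -0.20 and -0.11 in Amy, and had a mean of 0.14 (adjusted p = 0.446). Snapc3, a subunit of the complex that activates small nuclear RNA genes, had a mean of -0.13 (0.378). Without these 3 genes the count was 14 higher and 15 lower of 58.

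The lines were next described singly against the pool, by a size of at least 1 with 1 sign on both arrays. Each line has 1 replicate, so these differences carry no test. In JA 5 genes reached this size above the pool (Ap1s1, Tmed2, Tmed4, Trappc2b and Vps29) and 3 below it (Atp6v1c2, Vps13d and Vps36), where 7.42% and 13.6% of all features did (21.0% in either direction). In JB 0 genes reached it above and 3 below (Atp6v1c2, Vps13d and Trappc2), against 5.93% and 11.4% of all features (17.3% in either direction). In Amy 2 reached it above (Ap1g1 and Vamp8) and 0 below, against 4.97% and 12.0% (17.0% in either direction).

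JB was most often the lowest of the lines in this set. Its mean was the lowest of the 3 lines in 36 of the 61 genes, or 59.0%, and in 31.3% of all features; Amy was lowest in 10 genes and JA in 15. With each array centred on its median, JB was lowest in 39 genes, or 63.9%, and in 35.9% of all features. By step, JB was lowest in 7 of 9 clathrin and adaptor genes, 5 of 6 tethers and 6 of 10 SNARE genes. It was also lowest in 8 of 13 endosome and lysosome genes and 5 of 10 pump subunits. Of the 10 genes of the ER and Golgi coats, JB was lowest in 4 and Amy in 5. With centred arrays JB was lowest in 6 of these and Amy in 4. The median of the set was -0.03 in JA, -0.25 in JB and 0.03 in Amy. These counts were made after the values were seen, the 3 lines share 1 pool and 1 array pair each, and no test was made.

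**Figure D4:**
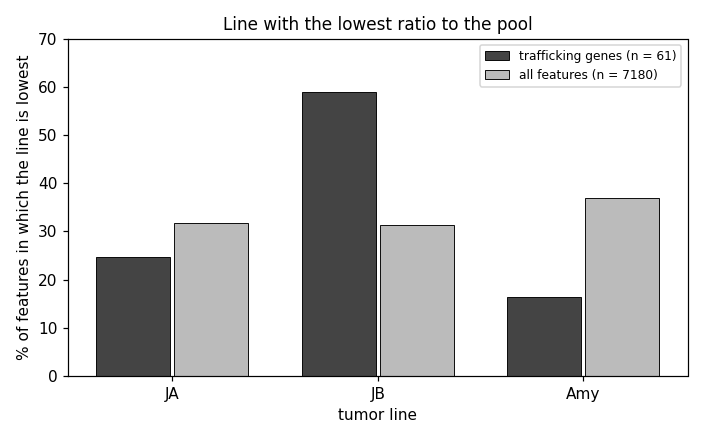
Percentage of features (vertical axis) in which a given tumor line (horizontal axis) has the lowest mean log2 ratio of the 3 lines, for the 61 trafficking genes (dark bars) and for all 7180 features (light bars). JB is lowest in 59.0% of the trafficking genes and in 31.3% of all features.

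Only Vamp8 set a line fully apart, with JB at least 1 below both other lines within each dye orientation; 0.696% of all features placed JB below in this way, 1.3% above and 1.99% in either direction. JA was set apart in 0 of the 61 genes, where 0.292% of all features placed it below and 0.362% in either direction, and Amy likewise in 0, where 0.501% of all features set it apart. The next widest gaps between lines, chosen after the values were seen, were those of Sec61a1, where 1 JB array opposed the others, and of Tmed2, Trappc2 and Lamp2. Trappc2 stood at -1.39 and 0.04 in JA, -1.19 and -1.16 in JB, and 0.05 and 0.21 in Amy, and its first clone read -2.48 and 1.32 on the dye-swapped JA arrays. Without Amy, Trappc2 passed at -0.93 (adjusted p = 0.0346).

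Of 212 further trafficking genes listed from knowledge of the pathway, 62 were measured, and 11 were higher and 19 lower, with a median of -0.19 and 48.4% called in either direction, against 53.5% of all features. Both receptors for the mannose 6-phosphate tag of lysosomal enzymes, which are cargo of the AP-1 adaptor, were higher: Igf2r at 1.54 ± 0.31 (adjusted p = 0.00158) and M6pr at 1.09 ± 0.30 (adjusted p = 0.00400). Igf2r stood at 1.67 and 1.63 in JA, 1.32 and 1.07 in JB, and 1.72 and 1.82 in Amy. Srp19, of the particle that brings nascent secretory proteins to the ER, was higher at 1.49 ± 0.09, Ica1, a Golgi and granule protein, at 1.16 ± 0.43, and Rph3al, a Rab effector of granule exocytosis, at 0.98 ± 0.24.

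The lowest gene of this list was Dnm1, the dynamin isoform abundant in neurons that cuts off endocytic vesicles, at -2.87 ± 0.77 (adjusted p = 0.00168). It had -3.34 and -3.01 in JA, -2.07 and -1.92 in JB, and -3.48 and -3.41 in Amy, well below 0 on every array and least so in JB. Necap2, an adaptor-binding protein of clathrin vesicles, was lower at -1.58 ± 0.23, the proprotein convertase Pcsk6 at -1.43 ± 0.0066 and the Golgi matrix protein Golga2 at -1.26 ± 0.46. Hgs, the ESCRT-0 subunit that passes cargo to ESCRT-I, was lower at -1.28 ± 0.25 (adjusted p = 0.00207), and Chmp2a of ESCRT-III was lower at -0.47 (0.0346). Chmp2a and the other ESCRT genes of the list were named after their values were seen. Vta1, a cofactor of the ATPase that takes ESCRT-III apart, was higher at 0.97 ± 0.24 (adjusted p = 0.00426), and Chmp1a, Chmp1b and Chmp3 of ESCRT-III had means of 0.20, -0.39 and -0.44 and did not pass (0.234, 0.15 and 0.159). Without JA 9 genes of this list were higher and 11 lower, and the call of Golga2 was lost (adjusted p = 0.0507).

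**Figure D5:**
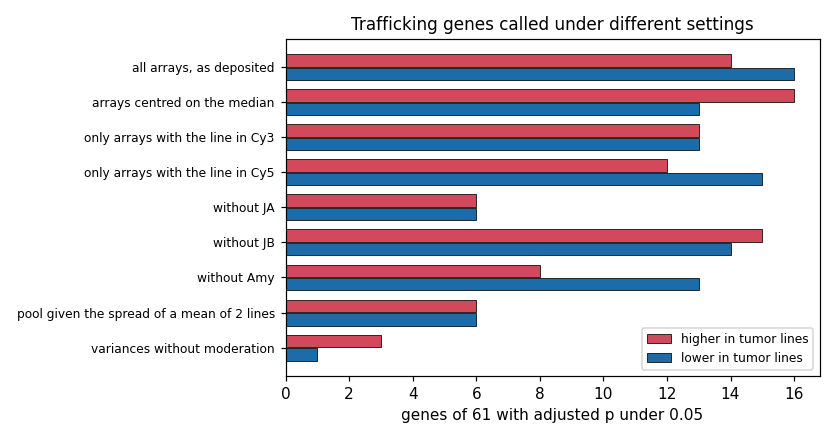
Number of the 61 trafficking genes with an adjusted p under 0.05 (horizontal axis), higher (red) or lower (blue) in the tumor lines, under the settings named at the left. The counts are 14 and 16 with all arrays as deposited, 6 and 6 without JA, and 3 and 1 when variances are not moderated. Calls over all features were counted only with all arrays as deposited.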

How the data were processed

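RNA of 3 tumor lines and a normal pool was measured on 6 two-colour arrays. The authors deposited a log ratio for each spot on each array, which was treated as log2; the log base, scanner, background correction and normalization are not given in the sources used here. Dye-swapped arrays correlated positively, so no sign was changed. Spots were named through the platform annotation: 8084 of 16128 carried 1 symbol, and all 61 genes matched RefSeq on GRCr8. Spots were averaged per gene (75 clones for the 61 genes, 10 genes with several) and the 2 arrays of a line per line. In R 4.3.3, limma 3.58.1 (lmFit and eBayes) compared the mean of 3 lines with 0, two-sided; p-values were adjusted by Benjamini-Hochberg over 7180 features and called under 0.05; no low-value filter was used. The pool is 1 control sample whose own spread is left out. The fit was tried on simulated line means with known changes in a small part of the features. No shared pool or dye effect was simulated, so that trial gives no error rate for these data. The replicate number is the dye orientation per the labels: differences between orientations correlated between lines at 0.526 to 0.613, so the numbers pair the arrays, and a fit with the replicate block and line as a random block was tried. Other alternatives were centring, scaling, lines and arrays left out, single orientations, first clones, a spread for the pool, ordinary and robust variances, and a threshold of 0.01. The genes, lists and rules were chosen with earlier results of these data known. Any gene of the set could be named; array values were given for those called with a mean of at least 1 in size, the highest and lowest of each step and those setting a line apart, with further genes chosen after their values were seen. From the list of other trafficking genes, up to 5 per direction with the largest mean were named. Matplotlib 3.10.9 under Python 3.11.15 drew the figures. The promoter palindrome, the genes whose promoters are printed, the count of the lowest line and the count without the 3 genes matched by letters were chosen after seeing the data.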

Additional observations from a re-analysis of the deposited data

Results flagged for a closer look

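In 10 of the 61 genes (16.4%, against 10.4% of all features) both arrays of 1 line lay above 0 and both arrays of another line below it. These differences between lines were not tested, since each line is 1 replicate. The largest was that of Vamp8, where Amy at 1.15 stood 1.59 above JB at -0.44, followed by Trappc2, with Amy 1.31 above JB, and Lamp2, with Amy 1.28 above JB. Atp6v0e1 differed by 1.05 between Amy at 0.42 and JB at -0.62, and Vps26b by 1.01 between JA at 0.58 and JB at -0.42. Smaller gaps were those of Vps26a at 0.77 and Vamp4 at 0.70, both with Amy above JB, Nsfl1c at 0.46 with JB above Amy, Ap3s1 at 0.38 with JA above JB, and Copb2 at 0.16 with Amy above JB. JB was the lower line in 9 of these 10 genes, but how often it was so among all such features was not counted.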

How the results depend on the processing

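The counts of 14 genes higher and 16 lower ranged from 6 to 15 and from 6 to 16 when a line or an array was left out, with both lowest counts found without JA (without Amy, 8 and 13). They fell to 6 and 6 when an error of its own, that of 2 averaged lines, was added for the pool. Without moderation of the variances they fell to 3 and 1, and at an adjusted p under 0.01 to 7 and 6. The share of all features called was not counted under these settings or with a line or array left out. The error added for the pool widens every interval by construction; for the variances without moderation the cause was not tested. Of the 30 calls, 12 remained without JA, 26 without JB, 19 without Amy and 25 in either dye orientation alone. With the replicate block 26 remained. That fit lost Cltc, Tmed2, Atp6v1g3 and Stxbp4, gained Nsf and Atp6v1b2 and changed no other call. It takes in all 6 arrays, so dye-swapped arrays of the same extracts count in part as replicates. The 19 lower genes among the other trafficking genes were 11 to 20 with a line left out, and the 11 higher ones 9 to 13. No called gene changed sign in any alternative run; among genes not called, the sign differed in 58 pairs of gene and setting. Spot intensities were not used, so a ratio cannot be set against background, and most genes rest on 1 clone.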
